A study of Solanum lycopersicum with 27 samples.

Results

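Tomato plants (Solanum lycopersicum, WT, cv MoneyMaker) were sampled 4 days after watering stopped, the earliest of the collections in a progressive water deficit. The comparison described here held 6 of the 27 RNA sequencing libraries of the series, all from mature leaf and each made from a single leaflet. The members were chosen by their labels alone: 3 libraries labelled water deficit, from plants under complete water withholding, and 3 labelled control, from plants watered every other day to soil capacity. Plants of both arms were 50 days old at the start, came from seed germinated on sucrose-containing medium, were moved to soil at the seedling stage, and were kept in long days of 16 h light with 8 h nights. Other groups of the series were mature leaves of the same arms at days 5, 8 and 10 and young leaves at day 10. The measured quantity was the count of reads of polyadenylated RNA per locus. The labels do not say whether the 3 libraries of an arm came from separate plants, so the p-values measure the spread between these libraries, which may be partly technical. All directions given are for leaves labelled deficit relative to leaves labelled control.

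When soil dries, roots and leaves of a plant accumulate abscisic acid, a hormone that closes stomata and switches on genes of water retention and protein protection. Closed stomata also limit carbon uptake, and mature leaves commonly lower transcripts of photosynthesis and growth as the deficit deepens. An early time point asks which transcripts differ before such a decline is advanced. The deposited table gives loci by identifier only. None of its 34688 identifiers matched the reference table of 41476 tomato genes used here (0 matches), so loci are described by identifier, level and size of change, with no gene name or role, and marker genes of leaf cell types were not checked.

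Total counts were 17261737 to 18169037 in the deficit libraries and 18424884 to 19301781 in the control libraries. Deficit libraries had 20940 to 20994 loci with at least 1 count, against 20732 to 20870 in control libraries. The share of counts at the 10 most abundant loci was 5.46% to 5.54% in deficit libraries and 6.09% to 6.67% in control libraries. None of these ranges overlapped, and each difference had an exact two-sided permutation p of 0.1, the smallest that 3 against 3 libraries allow. The deficit libraries were thus the shallower ones with more loci detected. With all counts thinned to the smallest total, 5824 loci were called between the arms, against 5953 with the counts as deposited.

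The replicates of each arm resembled each other more than they resembled the other arm. Pairs of deficit libraries correlated at r of 0.9944 to 0.9946 on the log2 scale of CPM, the counts scaled to a common library total, pairs across arms at 0.9733 to 0.9833, and pairs of control libraries at 0.9904 to 0.9939. The median absolute log2 difference of a locus was 0.0951 to 0.104 within the deficit arm, 0.179 to 0.268 across arms and 0.124 to 0.159 within the control arm. Expressed as the share of counts that would have to move to another locus to make 2 libraries equal, the distance was 2.69% to 3.07% within deficit, 7.36% to 11.3% across arms and 3.92% to 5.54% within control. No pair was alike enough to be one library deposited again, since the chi-square per degree of freedom was 2.61 or higher in every pair. The first principal component carried 67.7% of the variance of the 6 libraries. Deficit replicates 1 to 3 scored 25.1, 31 and 29.6 on it, and control replicates 1 to 3 scored -34.5, -31.8 and -19.4.

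Control replicate 3 lay apart from the other controls, on the side of the deficit arm. To place each library by loci it had not helped to choose, the test was repeated on the other 5 libraries, and the level of the left-out library was scaled so that 0 was the mean of the other controls and 1 the mean of the other deficit libraries. The median position was 0.856, 1.05 and 0.96 for deficit replicates 1 to 3. It was -0.0506, 0.0284 and 0.327 for control replicates 1 to 3. Control replicate 3 lay nearer its own arm at 65.4% of the 7432 loci called without it, while the other 5 libraries lay nearer their own arm at 89.9% to 96.8% of loci. The main counts of day 4 calls, and those of the tests between days, are therefore given with and without control replicate 3. Other counts are given with it only, such as those by size class, level or chromosome and those of arms that do not overlap. The same holds for the 2-fold calls followed to day 5.

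**Figure D1:**
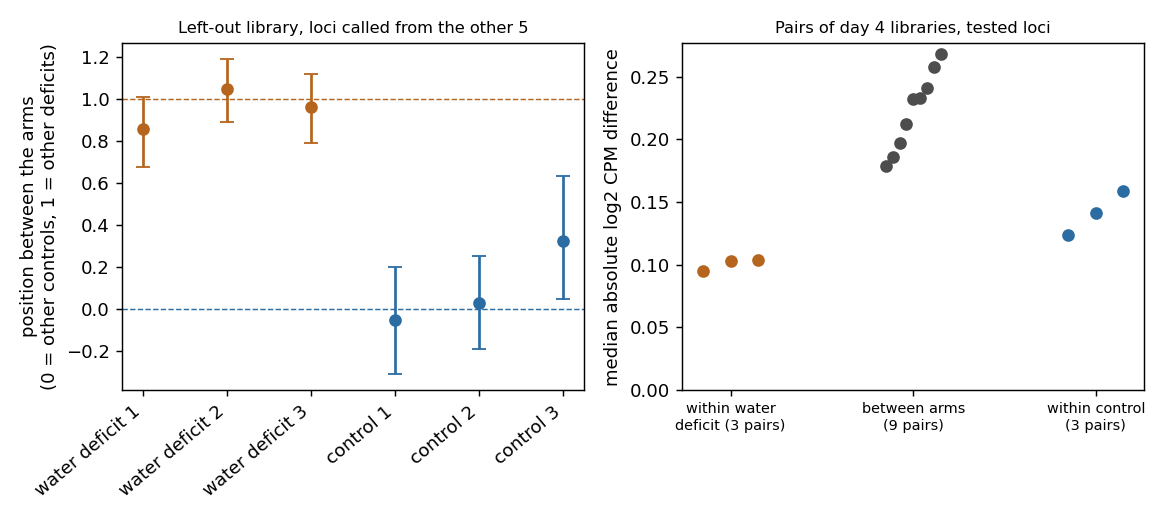
Left, the position of each day 4 library between the arms (unitless, 0 at the mean of the other controls, 1 at the mean of the other deficit libraries), as the median over loci called from the other 5 libraries, with bars from the 25th to the 75th percentile; right, the median absolute log2 CPM difference of each pair of libraries over the tested loci. Control replicate 3 sits at 0.327, between the arms, and every pair across arms differs more than every pair within an arm.

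Many transcripts differed between the arms at day 4, most of them by small amounts. Of 17561 loci with enough counts to test, 5953 (33.9%) were called, meaning an adjusted p below 0.05 (quasi-likelihood test of edgeR, Benjamini-Hochberg adjustment), and 7748 (44.1%) had an unadjusted p below 0.05. The called loci were 2891 higher (16.5%) and 3062 lower (17.4%) in deficit leaves. Without control replicate 3 the same test called 7432 loci, 3662 higher and 3770 lower, and 5686 of these were among the calls from the 6 libraries. In a bulk leaflet, a lower count from fewer cells of a type and one from less RNA per cell cannot be told apart. Without deficit replicate 2 it called 3927 loci, 1890 higher and 2037 lower. With all 27 libraries sharing one estimate of the spread it called 2255, of which 2209 were also called in the fit of 6.

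The typical called locus moved by well under 2-fold. The median log2 fold change was 0.42 among loci called higher, a 1.34-fold rise, and -0.401 among those called lower, a 1.32-fold fall. Changes under 1.5-fold made up 4236 of the calls, or 71.2%, and those of 1.5 to 2-fold another 1176. A change of at least 2-fold was called at 541 loci, 3.08% of those tested, of which 332 were higher and 209 lower, and at 720 without control replicate 3, of which 448 were higher. Changes of over 4-fold were called at 79 loci, 65 of them higher and 14 lower in deficit leaves. The CPM of the arms did not overlap at 8178 of the tested loci (46.6%), with deficit the higher arm at 4070 (23.2%), and at 5716 of the called loci (96%).

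The direction of the calls differed with the level of the locus. Among called loci with a mean log2 CPM below 0, 91 were higher and 43 lower in deficit leaves. From 0 to 3 the counts were 667 higher and 509 lower, from 3 to 6 they were 1410 higher and 1592 lower, and at 6 and over 723 higher and 918 lower. The share of loci called was 17.6%, 26.4%, 35% and 43.5% in these 4 classes, beside the 33.9% of all tested loci. The median absolute log2 fold change of the called loci was 1.43, 0.722, 0.372 and 0.315, so that a call at a weakly expressed locus needed a larger change. Summed over loci, those called higher held 189846 CPM in deficit leaves and 144372 CPM in control leaves. Those called lower held 276644 CPM in deficit leaves and 372618 CPM in control leaves. These sums describe loci chosen by the same libraries and are not a test.

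**Figure D2:**
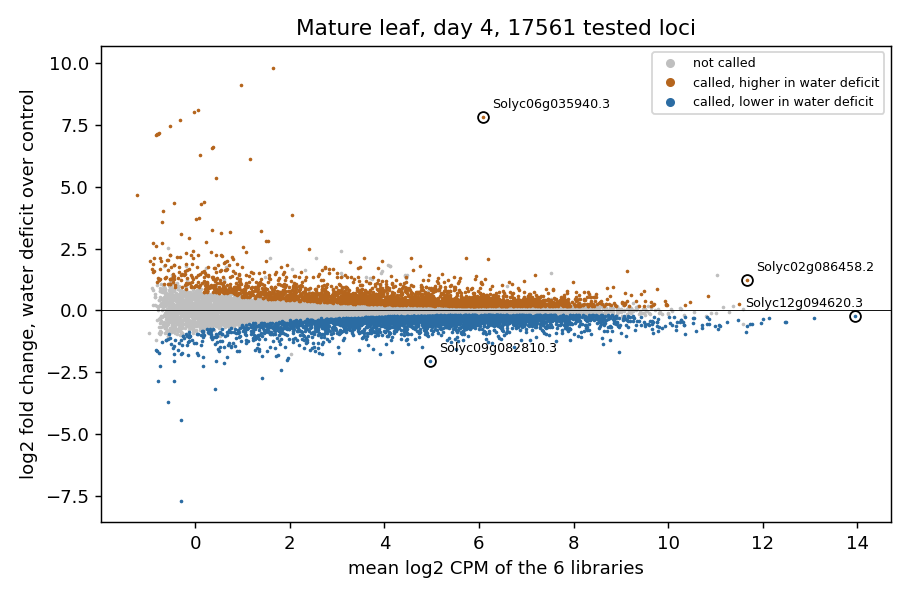
Log2 fold change of deficit over control (vertical axis) against the mean log2 CPM of the 6 day 4 libraries (horizontal axis) for the 17561 tested loci, coloured by call, with the 4 loci described in the text circled. The cloud lies within a few log2 units of 0, while Solyc06g035940.3 stands at 7.81, far above other loci of its level.

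Loci were named by a rule on size: among called loci whose log2 CPM averaged 3 or more with no overlap of the arms, those with the largest log2 fold change and the largest difference in mean CPM in each direction. There were 2046 eligible loci higher and 2412 lower in deficit leaves. The CPM of these 4 loci, scaled over all 27 libraries, are given next for every day 4 library.

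The largest rise was at Solyc06g035940.3. It had 140.4, 131 and 123 CPM in the deficit leaves, from 2675, 2421 and 2230 counts, and 0.367, 0.841 and 0.538 CPM in the control leaves, from 7, 16 and 10 counts. The locus was plainly expressed in each deficit leaflet and low, though above the floor of 3 counts, in each control leaflet. Its log2 fold change was 7.81 (adjusted p = 1.23e-15, edgeR quasi-likelihood test), a 224-fold difference. The SE derived from F was 0.142, which is too small to serve as a spread with so few control counts. The log2 fold change stayed between 7.56 and 8.16 when any 1 of the 6 libraries was left out. The second largest rise among the eligible loci was 2.13 on the log2 scale and the tenth 1.72.

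The largest rise in CPM was at Solyc02g086458.2, one of the abundant transcripts of these leaves. Deficit leaves had 4016, 4337 and 4928 CPM and control leaves 1319, 1662 and 2732 CPM. The arms did not overlap, but control replicate 3 was the highest control, and the adjusted p was 0.0481 (log2 fold change 1.22, SE 0.319, quasi-likelihood test). The call was lost in 5 of the 6 fits that left out 1 library, with adjusted p up to 0.135, and held without control replicate 3.

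Solyc09g082810.3 had the largest fall. It had 11, 11 and 14 CPM in deficit leaves and 49.8, 60 and 37.2 CPM in control leaves, with no overlap, and control replicate 3 was again the control nearest the deficit arm. The log2 fold change was -2.03 (SE 0.187, adjusted p = 9.48e-05, quasi-likelihood test), or 4.08-fold lower in deficit leaves. The second largest fall was -1.75 and the tenth -1.48 on the log2 scale.

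Solyc12g094620.3 had the largest fall in CPM. It held 14333, 14477 and 13742 CPM in deficit leaves and 16641, 17009 and 15996 CPM in control leaves. The replicates of each arm lay close together and the arms did not overlap, although the change was only 1.16-fold (log2 fold change -0.22, SE 0.0608, adjusted p = 0.011, quasi-likelihood test). The call was lost without deficit replicate 3 (adjusted p = 0.0796). Calls of 3 of the 4 loci were lost with all 27 libraries in the fit, where the adjusted p was 0.0555 for Solyc02g086458.2, 0.0559 for Solyc09g082810.3 and 0.159 for Solyc12g094620.3.

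Rises of at least 16-fold formed a small group. By their medians, its levels followed the treatment labels at day 5 and did not at days 8 and 10. The bound of 16-fold was chosen after the largest changes had been seen. By fitted fold change, 21 loci were called at least that much higher in deficit leaves and 2 at least that much lower, and without control replicate 3 the numbers were 32 and 3. Fitted folds of loci at 0 counts depend on the added prior count and are used here only to choose the loci. Of the 21 loci, 20 had a mean log2 CPM below 3, and Solyc06g035940.3 was the exception. Over all loci, tested or not, 17 had 0 counts in every control library and at least 3 in every deficit library, and 2 loci had the reverse. The filter on low counts kept 10 of the 17 and 1 of the 2, through the arm in which they were high, so their calls are not counted as support. Loci at 0 counts in the whole of an arm are also among those called at least 16-fold in each direction. The numbers of 21 and 2 therefore describe chosen loci and are not support.

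The levels of the 21 loci in libraries that had not chosen them were scaled to their mean in the day 4 deficit leaves. In day 5 deficit leaves the median of the loci was 109.9%, against 0.78% in day 5 control leaves, so the arms of day 5 stood as at day 4. In day 8 leaves the median was 0% in the deficit arm and 2.55% in the control arm. In day 10 mature leaves it was 78.1% in the deficit arm and 81.1% in the control arm, and in day 10 young leaves 75% in the deficit arm and 93.3% in the control arm. Of the 21 loci, 11 were at 10% or more in each of 17 libraries, those of deficit leaves at days 4 and 5 and every day 10 library of either arm and leaf age. The same 11 loci were below 10% in each of the other 10 libraries, those of control leaves at days 4 and 5 and of both arms at day 8. The day 4 libraries among these had chosen the loci, so only the places of the later libraries were free to vary. The bound of 10% and this division were set after the levels had been seen. How many of all loci show the same division was not counted. The other 10 loci were mixed. By group means, 3 of the 10 were higher in deficit than in control leaves in all 4 later comparisons, at 1.39% to 409.9% in deficit groups and 0% to 9.78% in control groups, with 0% in the day 10 control groups. The remaining 7 had neither pattern by these rules, of which the first asked for every library and the second for group means. By group means alone the first pattern would also hold at a locus outside the 11. The 11 loci of the first kind carry the numbers of 6 chromosomes in their identifiers. All 27 libraries have the same cultivar label. At days 4 and 5 this division of the libraries coincides with the arms. Its part in the differences of those days and that of the water deficit cannot be told apart from these libraries. Both arms of day 8 lie on the same side of it, so its part in a change from day 4 to day 8 cannot be told apart either.

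**Figure D3:**
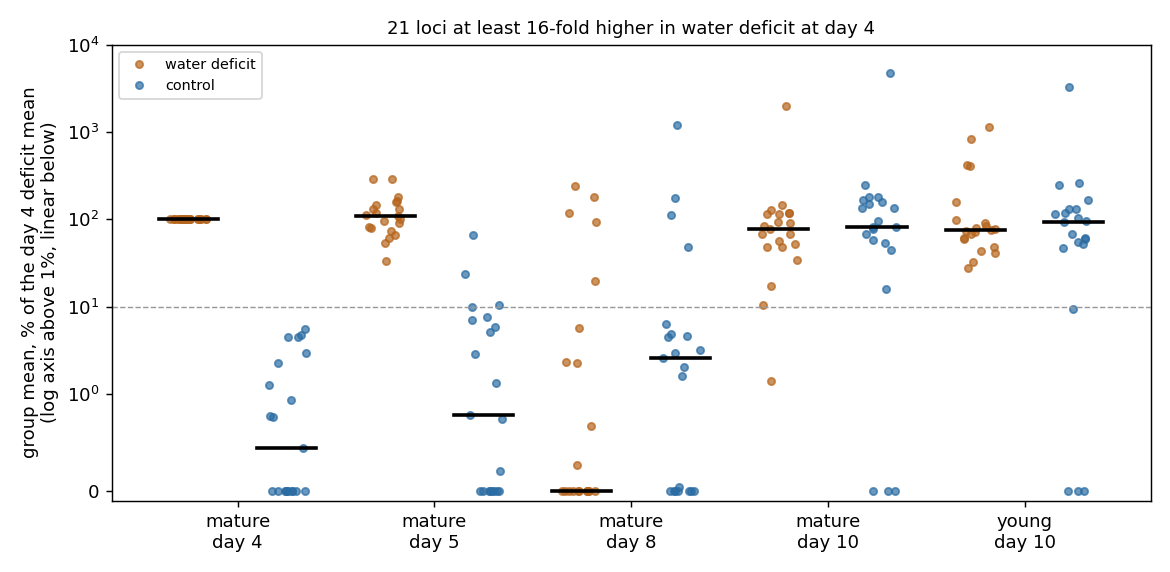
Level of the 21 loci called at least 16-fold higher in deficit leaves at day 4, as the group mean in percent of the day 4 deficit mean (vertical axis, logarithmic above 1% and linear below), in the 10 groups of the series; points are loci, black bars medians and the dashed line 10%. The medians are near 100% in deficit leaves of days 4 and 5, 0% in deficit and 2.55% in control leaves of day 8, and between 75% and 93.3% in the day 10 groups.

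The locus with the largest rise is itself among the 11 loci of this division, so its levels are not a further case. Solyc06g035940.3 had 106, 122 and 132 CPM in day 5 deficit leaves and 0.107, 0.28 and 0.405 CPM in day 5 control leaves. At day 8 it had 6 and 7 counts in the deficit leaves and 0 and 2 counts in the control leaves, too few for the test of that day. At day 10 it had 76.9 CPM or more in mature deficit leaves, 92.3 to 121 CPM in mature control leaves, 73.5 to 81.6 CPM in young deficit leaves and 65.2 to 79.2 CPM in young control leaves. The arms overlapped in both leaf ages at day 10.

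The other 3 loci differed between the arms at day 8, in either direction. Solyc02g086458.2 averaged 3241 ± 1009 CPM in deficit and 949 ± 253 CPM in control leaves at day 5 (SD, n = 3 each), and 1353 ± 357 CPM in deficit and 582 ± 27.5 CPM in control leaves at day 8 (SD, n = 2 each). It was called higher on both days, with log2 fold changes of 1.77 (adjusted p = 0.00588) and 1.21 (adjusted p = 0.00499, quasi-likelihood tests). Solyc09g082810.3 averaged 10 ± 2.16 CPM in deficit and 48.2 ± 5.61 CPM in control leaves at day 5 (SD, n = 3 each), and 10.4 ± 1.26 CPM in deficit and 155 ± 0.769 CPM in control leaves at day 8 (SD, n = 2 each). Its deficit level thus lay within 8.17 and 14 CPM on all 3 days while the control level was higher at day 8. Solyc12g094620.3 was not called at day 5 (log2 fold change -0.05, adjusted p = 0.664) and was called higher in deficit leaves at day 8 (log2 fold change 0.79, adjusted p = 3.05e-08, quasi-likelihood test), with 13447 ± 98.9 CPM in deficit and 7739 ± 416 CPM in control leaves (SD, n = 2 each).

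**Figure D4:**
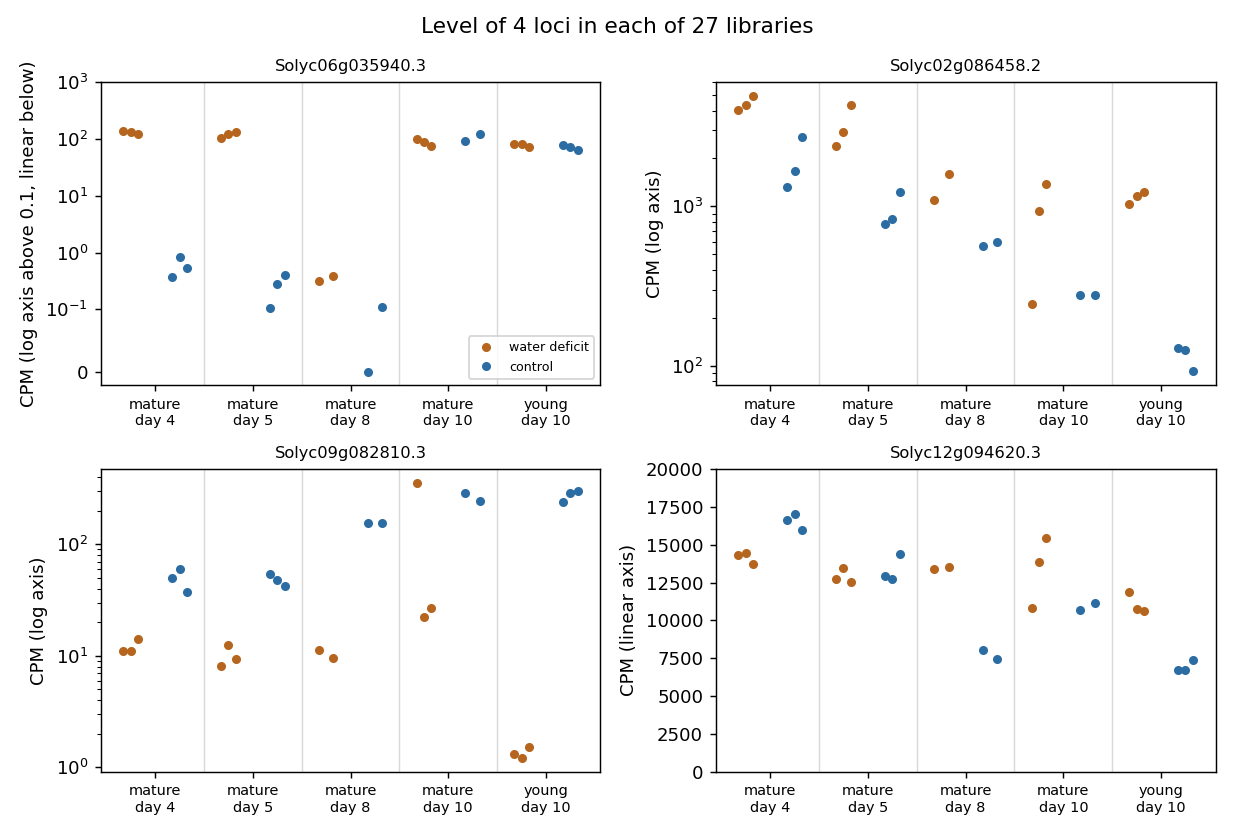
CPM of the 4 named loci in each of the 27 libraries (points), by leaf age and day, with deficit left of control; the axis of Solyc12g094620.3 is linear, that of Solyc06g035940.3 is logarithmic above 0.1 and linear below, and the other axes are logarithmic. Solyc06g035940.3 is near 0 in day 4 and 5 control leaves and in both arms of day 8, and at 65.2 CPM or more in every other library.

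Loci whose identifiers begin with Solyc00g, which in the tomato naming scheme lie on sequence not placed on a chromosome, leaned to one side. Of 578 such loci 69 were tested, 64 of these had a positive log2 fold change, and the median was 1.32, beside 0.0027 over the loci with a chromosome number. The test called 18 of the 69 (26.1%), 17 higher and 1 lower in deficit leaves, beside 33.9% of the other loci. Summed over all 578 loci the level was 539, 710.5 and 740 CPM in deficit leaves and 164, 186 and 500.3 CPM in control leaves. Control replicate 3 stood near the deficit arm, and the exact two-sided permutation p was 0.1, the smallest that this design allows. It exceeded both other controls at 55 of the 69 loci, beside 35.3% of the loci with a chromosome number. Without it 83 such loci were tested and 60 called, 58 higher and 2 lower, with a median log2 fold change of 2.54, beside 41.8% of all loci called in that fit. Some Solyc00g loci had nearly equal values. Solyc00g500054.1, Solyc00g500136.1 and Solyc00g500206.1 had log2 fold changes of 1.319, 1.277 and 1.349 at day 4 and 3.363, 3.473 and 3.211 at day 8. Loci this alike may not be separate observations, and how many there are was not counted.

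This sum also varied within arms on the later days. It was 312, 371 and 1199.9 CPM in deficit leaves and 224, 301 and 785 CPM in control leaves at day 5, where the arms overlapped. At day 8 it was 149 and 749 CPM in deficit leaves and 241 and 213 CPM in control leaves, which also overlapped. In day 10 mature leaves it was 120, 391 and 3411 CPM in deficit and 149 and 179 CPM in control leaves, again with overlap. In day 10 young leaves it was 1476, 484 and 1743 CPM in deficit and 92.6, 81.6 and 87.4 CPM in control leaves, with no overlap and in the direction of day 4. On the 12 placed chromosomes the share of tested loci called at day 4 ran from 31.6% on chromosome 4 to 37.7% on chromosome 5. The share of calls that were higher in deficit leaves ran from 43.8% on chromosome 10 to 53.7% on chromosome 4.

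Days 5 and 8 have their own libraries in both arms, so the day 4 calls could be followed in data that had not chosen them. The division of libraries described above coincides with the arms at day 5 as at day 4, while both day 8 arms lie on the same side. Agreement at day 5, and its loss at day 8, therefore cannot be assigned to the water deficit apart from that division. At day 5 the fit of its own 6 libraries called 7677 of 17590 loci (43.6%). Of the 5887 day 4 calls tested there, 3026 were called in the same direction, which is 51.4% of these day 4 calls and 39.4% of the day 5 calls. Another 507 (8.61%) were called in the opposite direction and 2354 (40%) were not called. Over all loci tested on both days, 32.3% were called at day 5 in the direction of their day 4 sign and 11.2% against it. The median log2 fold change at day 5 was 0.29 over loci called higher at day 4 and -0.255 over those called lower. The sign was the same at 77% of the day 4 calls, beside 64.5% of all loci tested on both days. Without day 4 control replicate 3 the share called in the same direction was 43.7%.

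Day 4 changes of at least 2-fold were followed in the same way. Of 332 loci called at least 2-fold higher, 282 were tested at day 5 and 198 (70.2%) were called higher there, with 10 called lower. Of 209 loci called at least 2-fold lower, 200 were tested at day 5, where 123 (61.5%) were called lower and 37 (18.5%) higher. These shares stand beside the same 32.3% and 11.2% of all loci. Whether these shares differ was not tested.

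At day 8, with 2 libraries in each arm, 13509 of 17870 loci (75.6%) were called. Of the 5850 day 4 calls tested there, 2312 (39.5%) were called in the same direction, 17.1% of the day 8 calls, and 2416 (41.3%) in the opposite direction. Over all loci tested on both days, called at day 4 or not, the shares called at day 8 in the direction of their day 4 sign and against it were 34.5% and 40.9%, so the opposite share of the day 4 calls was near that of any locus. The sign was the same at 48.9% of the day 4 calls, beside 46.4% of all loci tested on both days. The median log2 fold change at day 8 was 0.207 over loci called higher at day 4 and 0.194 over those called lower, positive for both. Of the loci called lower at day 4, 1433 were called higher at day 8 and 988 were called lower. Without day 4 control replicate 3 the shares in the same and the opposite direction were 33.4% and 47.2%.

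**Figure D5:**
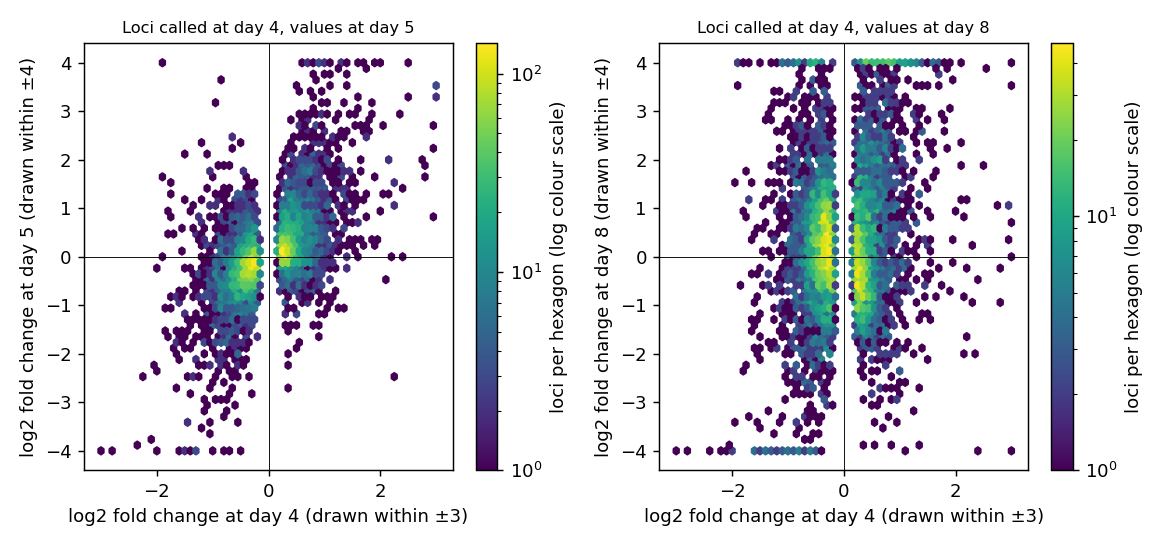
Log2 fold change of deficit over control at day 5 (left) and day 8 (right) against that at day 4 for the loci called at day 4 and tested on every day, as hexagons coloured by the number of loci; values beyond the drawn range are placed at its edge. Most loci keep their sign at day 5, and at day 8 positive values are the more frequent on both sides, with 56.1% of the loci called higher at day 4 and 42.2% of those called lower keeping their sign among all that were tested at day 8.

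The difference between days was itself tested. The difference of the arms at day 4 minus that at day 5 was called at 4847 of 17998 loci (26.9%), in 2048 cases more positive at day 4 and in 2799 more negative, and at 5481 without day 4 control replicate 3. Against day 8 it was called at 12664 of 18395 loci (68.8%), 5951 more positive and 6713 more negative at day 4, and at 12959 without that library. For the named loci neither Solyc06g035940.3 (difference -1.01, SE 0.477, adjusted p = 0.128), Solyc02g086458.2 (-0.55, SE 0.451, adjusted p = 0.422), Solyc09g082810.3 (0.23, SE 0.282, adjusted p = 0.599) nor Solyc12g094620.3 (-0.18, SE 0.0982, adjusted p = 0.197) passed against day 5 in the quasi-likelihood test. Against day 8 the difference was 1.87 (SE 0.29, adjusted p = 0.000358) for Solyc09g082810.3 and -1.02 (SE 0.0939, adjusted p = 8.23e-10) for Solyc12g094620.3, both called, and 0 (SE 0.468, adjusted p = 1) for Solyc02g086458.2. No such difference is read for Solyc06g035940.3, whose day 8 counts lie near the floor. The size of the arms' difference also varied by day, with a median absolute log2 fold change over tested loci that was 0.197 on day 4, 0.245 on day 5 and 0.677 on day 8, and calls of at least 2-fold at 541, 1792 and 6006 loci.

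Of 17144 loci tested on all 3 days, 1867 were called in the same direction at days 4, 5 and 8, 1029 higher and 838 lower in deficit leaves. That is 32.1% of the 5820 day 4 calls among them. The share of all loci called at both later days in the direction of their day 4 sign was not counted, so 32.1% has no baseline beside it. Another 577 (9.91% of these day 4 calls) were called in the same direction at days 4 and 5 and in the opposite direction at day 8. A further 96 (1.65%) were called at day 4 alone with a called difference from both later days, 46 of them higher and 50 lower.

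Each library of the later days was also placed on the line that runs from the day 4 control mean (0) to the day 4 deficit mean (1) over the 17561 tested loci. Day 5 deficit leaves stood at 0.485 ± 0.101 and day 5 control leaves at -0.26 ± 0.0679 (SD, n = 3 each). Day 8 deficit leaves stood at 0.26 ± 0.0444 and day 8 control leaves at -0.0388 ± 0.00309 (SD, n = 2 each). The arms did not overlap on either day, and both arms of day 5 lay below their day 4 counterparts. The day 4 means are 0 and 1 by construction, since the day 4 libraries drew the line. The distance between the arms of a later day is therefore not comparable with that of day 4. At day 10 mature deficit replicates 1 to 3 stood at -0.21, 0.409 and 0.438 and the mature control libraries at -0.168 and -0.117, so that replicate 1 lay beyond the controls. Young leaves at day 10 stood at 0.591 ± 0.0377 in the deficit arm and -0.164 ± 0.0342 in the control arm (SD, n = 3 each).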

How the data were processed

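Per the labels' protocols, TriZol served for the RNA extraction and polyA libraries were prepared by a sequencing company for paired-end reads. The authors' deposited values are whole-number read counts per locus, taken as raw counts since the columns sum to different totals. The submitters' processing notes name DESeq2, with no role. The aligner, counter, build, annotation and use of strand are not given in the sources used here, so how reads common to similar copies or overlapping loci were counted is not known, which bears on the Solyc00g loci and on every locus at 0.

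Groups came from sample titles and columns from sample descriptions. The 6 day 4 libraries were fitted alone in R 4.3.3 with edgeR 4.0.16. Of 34688 loci, 11904 had no count in them, and filterByExpr kept 17561 with 99.93% of the counts. TMM factors were 1.02 to 1.03 for deficit and 0.963 to 0.985 for control. A quasi-likelihood fit with robust estimation gave F tests, adjusted by Benjamini-Hochberg and called below 0.05. The SE is the log2 fold change divided by the root of F, which can understate the spread of a very large change. Days 5 and 8 were fitted on their own libraries, and the difference between days on the libraries of both. Log2 CPM used a prior count of 2, and printed CPM were scaled by TMM over all 27 libraries. A count of 0 allows up to 3 counts, which covers counting error only.

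The groups, lists and rules were chosen with earlier results of these data known. As the identifiers carry no names here, the planned gene lists and cell type markers were not used, and the rule for named loci gave 4 loci. The test script was checked on simulated counts. Alternatives were DESeq2 1.42.0, RLE or upper quartile scaling, the test without a filter or with mean CPM at 1 or above, no robust estimation, all 27 libraries in the fit, a replicate block, thinning, and leaving out each library.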

Additional observations from a re-analysis of the deposited data

Results flagged for a closer look

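The difference of the arms at day 4 minus that at day 5 was called at 4847 loci by the interaction test, and the same difference from day 8 at 12664 loci. Among the named loci, the difference of the arms at day 4 minus that at day 8 was 5.36 on the log2 scale for Solyc06g035940.3, which had 6 and 7 counts in deficit and 0 and 2 counts in control leaves at day 8. These counts are too few for the test of day 8 and the locus was chosen for its day 4 difference, so this value is not read as a size. It was 1.87 for Solyc09g082810.3, where control leaves averaged 49 ± 11.4 CPM at day 4 (SD, n = 3) and 155 ± 0.769 CPM at day 8 (SD, n = 2). It was -1.02 for Solyc12g094620.3, which was lower in deficit than in control leaves at day 4 and higher at day 8. Groups of 3 libraries are too small for a test of single outlying libraries, so control replicate 3 of day 4 is described by its position alone.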

How the results depend on the processing

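Most counts held within 1.5 times under the alternatives. With all 27 libraries in the fit the day 4 calls fell to 2255, and calls of the difference from day 5 to 1078. Leaving out each library gave 3927 to 7432 calls at day 4, 492 to 720 of at least 2-fold, 4001 to 5481 for the difference from day 5, 11776 to 12959 for that from day 8, 6368 to 7410 at day 5 and 12272 to 13277 at day 8. Calls of at least 16-fold numbered 23, against 61 without a filter, 9 at a mean CPM of at least 1, and 23 to 35 with a library left out. DESeq2 called 4977 loci at day 4. Same-numbered deficit and control libraries deviated together at r = 0.184, 0.01 and 0.084, and libraries of unlike number at r of -0.153 to 0.069. A replicate block called 6704 loci, against 5953 without it. Whether the replicate numbers pair the libraries was not tested. The cause of these shifts was not tested, apart from the filters, which change which loci are tested. No direction of the 4 named loci reversed. Leaving out each day 4 library, chosen after the data were seen, gave 43.7% to 58.9% of day 4 calls repeated at day 5 and 33.4% to 45.6% at day 8. Depth limits loci near the floor of 3 counts.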
